A study of Mus musculus with 21 samples.

Results

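The kidneys of 11 mice were compared, 6 from mice fed an adenine diet (Ade) and 5 from mice fed the control diet (Con). They belong to a series of 21 kidneys, in which the other 10 mice also received iodomethylcholine (IMC), an inhibitor of the bacterial enzyme that makes trimethylamine from choline. The 11 libraries were taken by their treatment label alone, so that no measured value entered the choice, and all genes with enough counts were described. Every mouse in both groups was a female apoE knockout on the C57BL/6J background, 18 weeks old, that had eaten its diet for 14 weeks since the age of 4 weeks. Total RNA came from flash-frozen kidney, 1 library per mouse, with no separation of cortex, medulla or cell types named in the labels. The question was what the adenine diet alone changed in the kidney of this mouse.

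Excess dietary adenine is oxidised by xanthine dehydrogenase to a poorly soluble product that forms crystals in the tubules, and the diet is a standard model of tubulointerstitial kidney disease in rodents. The proximal tubule recovers most of the filtered phosphate, glucose, amino acids and protein and draws its energy mainly from fatty acid oxidation, whereas the later segments set salt, water and acid balance. In chronic injury, tubule cells switch on a recognised set of injury genes, leukocytes enter the interstitium and fibroblasts deposit matrix. The apoE knockout, shared by both groups, lacks the apolipoprotein that clears remnant lipoproteins from plasma.

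Adenine feeding was accompanied by a change in most of the genes measured. Of 14612 genes tested, 5135 (35.1%) were higher and 4706 (32.2%) lower in Ade than in Con at an adjusted p below 0.1 in edgeR's quasi-likelihood test. Counts of called genes in a list are to be read against these shares. The rises reached further than the falls. At least 2-fold changes were found in 2283 genes (15.6%) that were higher and 968 genes (6.62%) that were lower, and at least 8-fold changes in 537 and 16 genes. At least 16-fold changes numbered 223 higher and 5 lower. The 6 Ade libraries all lay above the 5 Con libraries in 3373 genes (23.1%) and all lay below them in 2895 genes (19.8%). Among the genes not called, 3559 had a 95% confidence interval that lay wholly within a 1.5-fold change, so that a change above that size was not seen in them. The first principal component of all genes held 78.3% of the variance and the second held 6.3%.

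Library totals ranged from 7716126 to 11680809 counts in Con and from 5444833 to 7673215 in Ade, and the 10 genes with the most counts took 14.6% to 15.6% of a Con library and 9.46% to 11.8% of an Ade library. Levels are given below as CPM (counts scaled to a common library size) after scaling by the trimmed mean of M values (TMM), which does not correct for gene length, so that levels are compared between mice and not between genes. When library totals alone set the scale, the median log2 fold change of all genes moved from 0.02 to 0.32 and the share of called genes that were higher from 52.2% to 76.2%, so each direction below is relative to the bulk of genes. Apoe transcript was at 5.92 to 14.6 CPM in Con and at 11.8 to 26.3 CPM in Ade, with 1 Ade mouse inside the Con range (log2 fold change 0.93 ± 0.24 SE, edgeR adjusted p = 0.00457). The position of the knockout allele within the gene was not stated, so this level does not check the genotype. The tissue label held, since 33 of 34 proximal tubule genes were read at testable levels, including Slc34a1 at 4016 to 5537 CPM in Con.

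**Figure D1:**
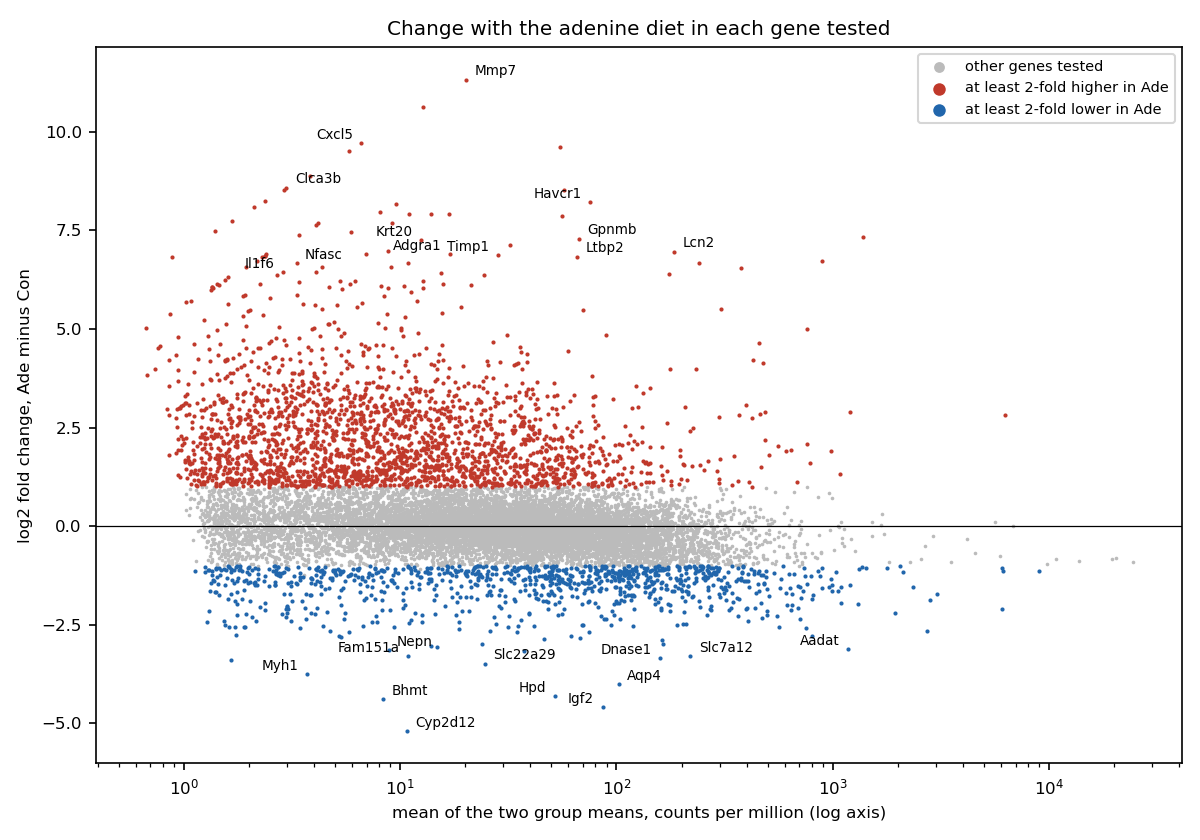
Each point is 1 of the 14612 genes tested, with the mean of the Con and Ade group means in CPM on a log x axis and the log2 fold change (Ade minus Con) on the y axis. The 2283 red genes and 968 blue genes were at least 2-fold higher and lower in Ade, and the red points reach further from 0 than the blue ones; the 24 genes with the largest changes by the naming rule carry their symbols.

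The genes with the largest rises included genes of injured epithelium, of macrophages and of matrix turnover. Havcr1, which encodes kidney injury molecule KIM-1 on damaged proximal tubule cells, was at 0.486, 0.565, 0.132, 0.378 and 0.893 CPM in the 5 Con mice and at 72.8, 125 and 264 CPM (lowest, median and highest) in Ade. Its log2 fold change was 8.22 ± 0.55 (SE, edgeR adjusted p = 6.78e-08), and no Ade mouse came near the Con range. Lcn2, which encodes the iron-siderophore binding protein lipocalin-2, was at 3.01, 2.68, 4.90, 1.26 and 2.81 CPM in Con and at 123, 314 and 599.6 CPM in Ade. Krt20, a keratin of terminally differentiated epithelia, was read in only 3 Con mice, at up to 0.282 CPM, and was at 3.05, 17 and 58.4 CPM in Ade. Gpnmb, a transmembrane glycoprotein of phagocytes with a high lysosomal load, was at 0.680, 1.69, 1.59, 0.252 and 0.128 CPM in Con and at 78.3, 129.9 and 196 CPM in Ade (log2 fold change 7.29 ± 0.37, edgeR adjusted p = 8.87e-09). The spread of Krt20 among the 6 Ade mice was thus wide and that of Gpnmb narrow.

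Ltbp2, a microfibril-associated protein related to the latent TGF-beta binding proteins, rose from 0.777, 0.847, 1.59, 1.51 and 1.02 CPM to 76.1, 146 and 157 CPM (log2 fold change 6.83 ± 0.26, edgeR adjusted p = 1.18e-09). Timp1, a secreted inhibitor of matrix metalloproteinases, was at 0.389, 0.423, 0.265, 0.630 and 0.638 CPM in Con and at 30.4, 54.1 and 93.1 CPM in Ade. Both groups of values were far apart in both genes. Adgra1, an adhesion G protein-coupled receptor, was at 0.0971 to 0.510 CPM in Con and at 17.4 to 56.4 CPM in Ade, a log2 fold change of 6.89 ± 0.44 (edgeR adjusted p = 5.27e-08).

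**Figure D2:**
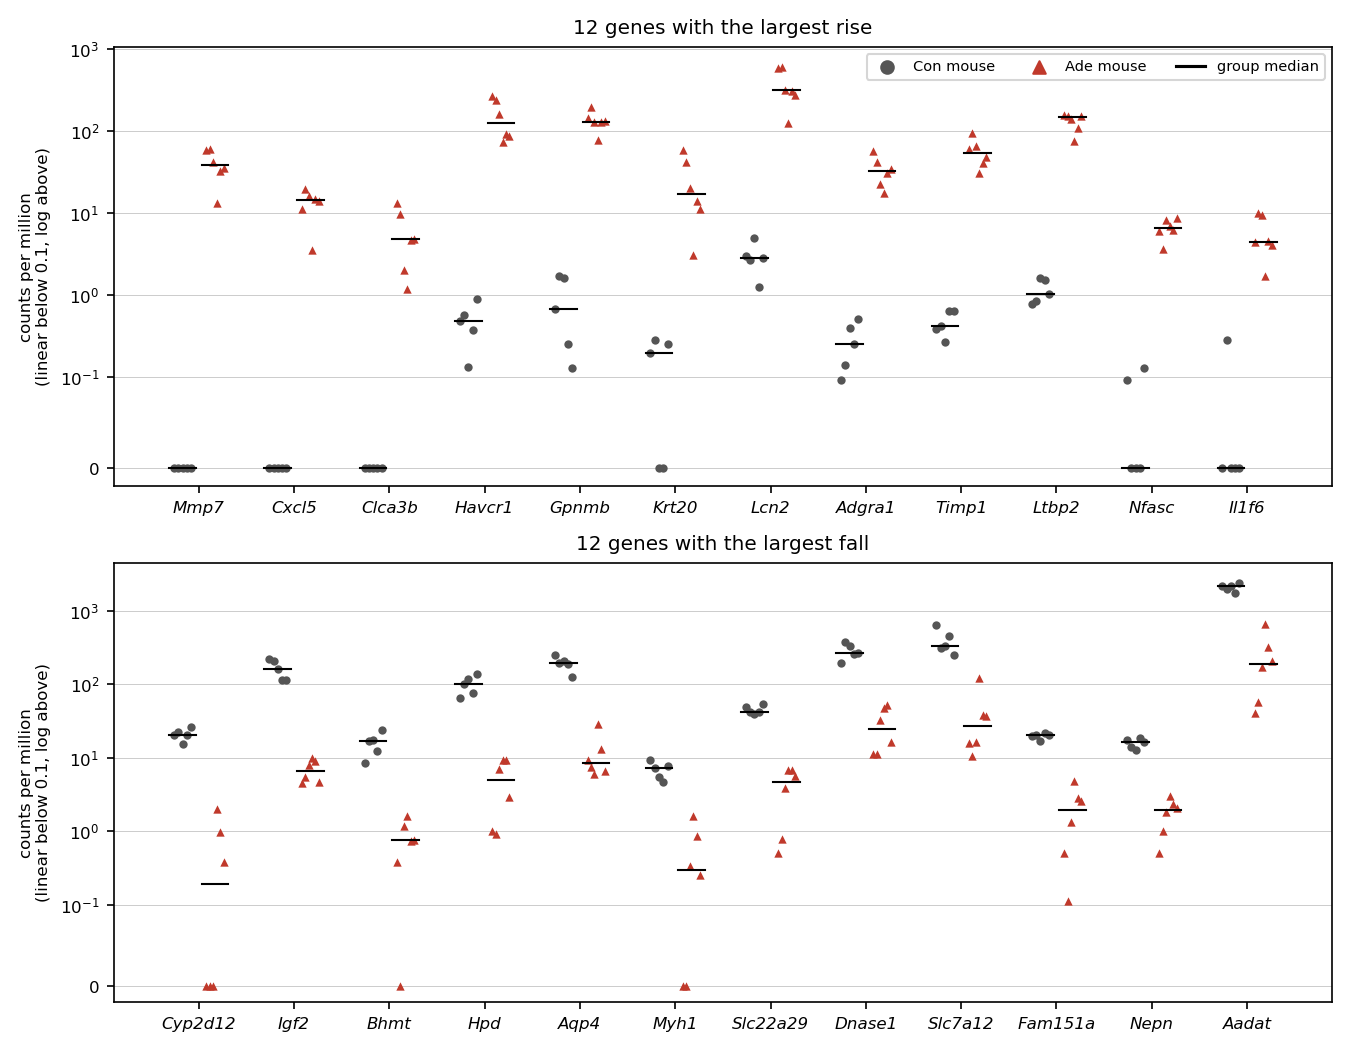
CPM in each mouse (grey circles, 5 Con; red triangles, 6 Ade; black bars, group medians) for the 12 genes with the largest rise (top) and the 12 with the largest fall (bottom), on an axis that is linear below 0.1 and logarithmic above. The 5 Con mice and 6 Ade mice do not overlap in any of the 24 genes, which the rule that chose them required.

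Some of these genes had no or almost no reads in the control kidney. In all, 367 genes had 0 counts in every Con library, and 71 of these were read in all 6 Ade libraries, whereas 43 genes had 0 counts in every Ade library, none of them with more than 19 counts over the 5 Con libraries together. With at least 10 counts asked of each Ade library, 4 genes were left. Mmp7, which encodes the epithelial metalloproteinase matrilysin, was at 13.1, 38.8 and 59.9 CPM in Ade, at least 555-fold higher than the limit that 3 counts over all Con libraries would give. Cxcl5, a neutrophil-attracting chemokine, was at 3.58, 14.4 and 19.5 CPM, at least 181-fold higher. Nlrp10, a member of the NOD-like receptor family, was at 2.67, 3.15 and 4.85 CPM, at least 45.7-fold higher. The fourth was an immunoglobulin kappa variable segment. Clca3b, of the calcium-activated chloride channel regulator family, was also at 0 in Con but fell below 10 counts in 1 Ade mouse, with 1.19, 4.75 and 13.3 CPM in Ade, at least 84.9-fold higher.

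A further 21 genes had 1 to 3 counts over the 5 Con libraries and at least 10 in each Ade library, which makes 25 with the 4 above, and 5 of the 25 were immunoglobulin segments. For Nfasc, which encodes the cell adhesion protein neurofascin, the ratio of counts at equal depth was 132 (95% counting interval 36.1 to 1090), with 3.61, 6.58 and 8.65 CPM in Ade. For Il1f6, which encodes interleukin-36 alpha, an epithelial cytokine of the interleukin-1 family, it was 115 (31.4 to 951). Ctla4, the inhibitory receptor of regulatory and activated T cells, had a ratio of 149 (26.4 to 5930). The chemokine Ccl20, which attracts cells that carry Ccr6, had a ratio of 75.9 (20.7 to 632). These intervals cover counting error only and are wide because the Con counts are so few.

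The genes with the largest falls included many enzymes and transporters of the tubule. Cyp2d12, a cytochrome P450, was at 20.4, 22.7, 15.4, 20.5 and 26.2 CPM in Con, was not read in 3 of 6 Ade mice and reached at most 1.99 CPM in the others (log2 fold change -5.19 ± 0.51, edgeR adjusted p = 2.1e-06). Igf2, which encodes insulin-like growth factor 2, was at 223, 211, 162, 116 and 116 CPM in Con and at 4.51, 6.70 and 9.81 CPM in Ade (log2 fold change -4.59 ± 0.25, edgeR adjusted p = 1.42e-08), the smallest adjusted p of any gene that fell. Every Ade value of Igf2 was below 10 CPM, although the Con mice themselves ranged from 116 to 223 CPM. Its exons share 3694 bases with other annotated genes, and the sources used here do not say how reads in shared bases were counted. Bhmt, which remethylates homocysteine with betaine, fell from 8.55 to 24.1 CPM in Con to at most 1.59 CPM in Ade. Hpd, which acts in tyrosine breakdown, was at 65.2, 99.8, 117, 76.1 and 136 CPM in Con and at 0.903, 4.98 and 9.34 CPM in Ade.

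Aqp4, a basolateral water channel listed here with the principal cells of the collecting duct, was at 254, 192, 206, 189.9 and 127 CPM in Con and at 6.02, 8.42 and 29.0 CPM in Ade. Its log2 fold change was -4.01 ± 0.35 (edgeR adjusted p = 7.36e-07), and the bulk counts do not say in which cells it fell. The highest Ade value, from mouse 407, stood apart from the rest of its group but lay far below the Con range. Aadat, an aminotransferase of lysine and kynurenine breakdown, was at 1751 to 2392 CPM in Con and at 41.3, 189.7 and 654 CPM in Ade, a wide range that nevertheless stayed below every Con mouse. Slc7a12, an amino acid transporter, was at 251 to 648 CPM in Con and 10.5, 26.9 and 124 CPM in Ade. Dnase1, the secreted deoxyribonuclease, was at 197 to 382 CPM in Con and at 11.1, 24.3 and 52.8 CPM in Ade. The organic anion transporter family member Slc22a29 was at 39.4 to 54.2 CPM in Con and at 0.501, 4.72 and 6.89 CPM in Ade. Myh1, a fast skeletal myosin heavy chain, was at 4.66 to 9.33 CPM in Con and was not read in 2 Ade mice, while 3 other skeletal muscle genes in the table were too low to test.

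The most precise changes were not the largest. Adamts2, which trims the ends of procollagen, was at 5.73, 6.49, 6.62, 7.68 and 7.02 CPM in Con and at 54.9, 62.1 and 66.5 CPM in Ade, a log2 fold change of 3.20 ± 0.10 with the smallest adjusted p of all genes (3.54e-10, edgeR). Siglec1, the sialic acid receptor CD169 of resident macrophages, rose from 2.26 to 2.93 CPM to 36.7 to 59.6 CPM (log2 fold change 4.20 ± 0.15). Mfap5, a protein of elastic microfibrils, rose from 0.756 to 1.41 CPM to 21.2 to 29.6 CPM (4.52 ± 0.17). In these 3 genes the Ade mice lay close together and far above the Con mice. Among the genes that fell, Cndp1, a carnosine-splitting dipeptidase, was at 61.2 to 72.0 CPM in Con and 10.8 to 19.8 CPM in Ade (-2.22 ± 0.13). Dhtkd1, a mitochondrial dehydrogenase of lysine breakdown, fell from 55.5 to 66.8 CPM to 7.45 to 16.6 CPM (-2.38 ± 0.16). Gnmt, which methylates glycine, fell from 17.1 to 20.3 CPM to 2.38 to 4.90 CPM (-2.39 ± 0.18).

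The proximal tubule carried the broadest loss of any nephron segment described. All 33 of the 33 proximal tubule genes tested were lower in Ade, 31 of them at least 2-fold, with a median log2 fold change of -1.64 against 0.02 over all genes tested. In these bulk samples fewer cells of a type and less RNA per cell cannot be told apart. Slc34a1, the main renal sodium-phosphate cotransporter, was at 4347, 4082, 4016, 5288 and 5537 CPM in Con and at 564, 1396 and 2643 CPM in Ade (log2 fold change -1.73 ± 0.33, edgeR adjusted p = 0.000448). Lrp2, the endocytic receptor megalin, was at 6088, 3743, 3685, 6084 and 3830 CPM in Con and at 361, 574 and 1765 CPM in Ade (-2.65 ± 0.38, edgeR adjusted p = 5.22e-05). Cubn, its partner cubilin, fell with a log2 fold change of -2.37 ± 0.31. In both endocytic receptors the highest Ade value was that of mouse 407, and no Ade mouse reached the lowest Con mouse.

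Slc5a2, the glucose transporter SGLT2 of the early proximal tubule, fell from 233 to 310.4 CPM to 34.1 to 94.9 CPM (log2 fold change -2.07 ± 0.23). Slc6a19, the neutral amino acid transporter of the brush border, had the largest fall of the list, from 249 to 363 CPM to 7.01, 36.5 and 79.0 CPM (-2.98 ± 0.47, edgeR adjusted p = 0.000109). The smallest fall was in Slc13a1, the sodium-sulfate cotransporter, picked here after its values were seen, with 464 to 768 CPM in Con and 421 to 558 CPM in Ade (-0.32 ± 0.14, edgeR adjusted p = 0.058), a call that was lost without mouse 208, 408, 302 or 403 (adjusted p of 0.107 to 0.174 in edgeR). With library totals alone its log2 fold change was -0.03 (edgeR adjusted p = 0.865), and with upper-quartile scaling -0.26 (edgeR adjusted p = 0.101). The organic anion transporter Slc22a6 fell by 1.13 ± 0.27 on the log2 scale (edgeR adjusted p = 0.00279), and its highest Ade value, 531 CPM, lay inside the Con range of 472 to 753 CPM. Members of 1 segment thus differed widely in the size of their fall.

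In the later segments list medians lay nearer to 0. In the thick ascending limb 9 of 12 genes were lower and 1 was higher (median -0.69). Within the mice whose number starts with 2, 3 or 4 the median of this list was -1.06, -1.16 and 0.10. The second value has mouse 308 as its only Ade mouse, and the third has mouse 403 as its only Con mouse. Mouse 403 had the lowest mean over this list among the Con mice (-0.291 on the log2 scale, relative to the Con mean). Umod, which encodes uromodulin, did not pass, with 3578 to 5970 CPM in Con and 1990 to 4645 CPM in Ade (log2 fold change -0.33 ± 0.21, edgeR adjusted p = 0.181), but was lower when mice were blocked by the digit that opens their number (-0.49, edgeR adjusted p = 0.0582). Egf, which encodes the epidermal growth factor precursor made in the same cells and the distal tubule, was at 4343, 3303, 2652, 3386 and 2261 CPM in Con and at 236, 581 and 1425 CPM in Ade (-2.19 ± 0.46, edgeR adjusted p = 0.000949). The cotransporter Slc12a1 (NKCC2) fell by 1.06 ± 0.29 on the log2 scale, and Cldn16, a claudin of the paracellular magnesium route, rose by 0.48 ± 0.13 (edgeR adjusted p = 0.00749). Cldn16 overlapped between the groups, at 10.2 to 14.7 CPM in Con and 13.9 to 19.9 CPM in Ade, and lost its call in the test against a 1.5-fold change. Genes of 1 cell type thus lay on both sides of 0.

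In the distal convoluted and connecting tubule 9 of 11 genes were lower and none higher (median -0.88), among them the thiazide-sensitive cotransporter Slc12a3 (-1.02 ± 0.19) and Kl, which encodes the FGF23 co-receptor Klotho. Kl was at 1158, 1052, 722, 1235 and 1095 CPM in Con and at 189, 329 and 652 CPM in Ade (-1.54 ± 0.28, edgeR adjusted p = 0.000303). The calcium-binding protein Pvalb fell by 1.76 ± 0.37, the largest fall of the list, while the magnesium channel Trpm6 had a log2 fold change of -0.31 ± 0.16 that did not pass (edgeR adjusted p = 0.11). Trpm6 was called lower with RLE scaling (edgeR adjusted p = 0.0826), by DESeq2 (adjusted p = 0.0805) and without mouse 207 or 301 (edgeR adjusted p = 0.0143 and 0.0475). Among principal cell genes 8 of 10 were lower (median -0.64). Besides Aqp4, the water channel Aqp2 fell by 1.28 ± 0.25 on the log2 scale, Aqp3 by 1.27 ± 0.18 and the sodium channel subunit Scnn1b by 0.57 ± 0.10. Aqp2 varied almost 3-fold among the Con mice, between 112 and 306 CPM, and was at 55.4 to 103 CPM in Ade. Of the intercalated cell genes 12 of 14 were lower (median -1.07), including the anion exchangers Slc4a1 (-1.62 ± 0.25) and Slc26a4 (-1.52 ± 0.23), the proton pump subunit Atp6v1b1 (-0.77 ± 0.11) and the transcription factor Foxi1 (-0.46 ± 0.15). The call of Foxi1 was lost with library totals alone (-0.16, edgeR adjusted p = 0.3).

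Transcription factors that specify the nephron were mostly lower. Of 15 tested, 9 were lower and 1 was higher (median -0.64), beside 32.2% and 35.1% of all genes tested. Hnf4a, which directs the proximal tubule programme, was at 943, 833, 839.8, 1057 and 959.7 CPM in Con and at 201, 249 and 468 CPM in Ade (log2 fold change -1.70 ± 0.20, edgeR adjusted p = 7.48e-06), and its lowest Con value was well above its highest Ade value. Pax8, a factor of early kidney development that stays on in the tubule, was higher, at 100.2 to 124 CPM in Con and 118 to 188 CPM in Ade (0.41 ± 0.12, edgeR adjusted p = 0.00766).

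Promoter sequences of RefSeq, on build GRCm38.p6, were searched for short motifs of HNF4 (CAAAGTCC) and AP-1 (TGAGTCA), on both strands, in the 300 bases from 250 before to 50 after the start listed first for each gene. The letters of the 2 motifs differ, and 11184 of the tested genes had a sequence. CAAAGTCC was present in 3.72% of 726 genes that were at least 2-fold lower, in 2.31% of 1645 genes that were at least 2-fold higher, in 1.56% of all tested genes with a sequence and in 1.44% of all 27025 genes in the sequence table. TGAGTCA was present in 4.55%, 5.84%, 3.69% and 5.17% of the same sets. These are shares of windows that hold the letters, not sites shown to be bound. The promoters of 3 genes are printed with every match in capitals, Slc34a1 for a proximal tubule gene with HNF4 letters, and Mmp7 and Gpnmb for large rises with AP-1 letters.
Slc34a1, chr13:55399398-55399697, plus strand: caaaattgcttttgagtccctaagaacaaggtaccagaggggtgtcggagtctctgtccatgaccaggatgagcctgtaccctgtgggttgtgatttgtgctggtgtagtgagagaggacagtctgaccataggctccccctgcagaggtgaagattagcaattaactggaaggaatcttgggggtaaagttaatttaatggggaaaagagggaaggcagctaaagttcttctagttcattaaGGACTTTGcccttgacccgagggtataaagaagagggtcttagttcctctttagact
Mmp7, chr9:7691840-7692139, plus strand: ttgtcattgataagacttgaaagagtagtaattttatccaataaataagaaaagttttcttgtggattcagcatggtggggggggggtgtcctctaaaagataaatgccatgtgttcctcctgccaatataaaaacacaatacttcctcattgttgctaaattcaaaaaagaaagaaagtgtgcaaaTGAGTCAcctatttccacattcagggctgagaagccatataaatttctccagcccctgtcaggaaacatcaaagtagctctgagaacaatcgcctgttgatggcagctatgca
Gpnmb, chr6:49036268-49036567, plus strand: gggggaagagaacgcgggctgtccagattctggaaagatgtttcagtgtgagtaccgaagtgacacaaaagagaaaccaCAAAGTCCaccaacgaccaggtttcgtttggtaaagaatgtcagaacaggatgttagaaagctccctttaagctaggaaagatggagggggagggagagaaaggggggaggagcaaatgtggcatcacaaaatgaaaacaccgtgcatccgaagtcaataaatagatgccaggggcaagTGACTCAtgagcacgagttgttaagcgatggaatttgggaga
The first window holds CAAAGTCC on the opposite strand, as GGACTTTG. Mmp7 holds TGAGTCA and Gpnmb its reverse complement TGACTCA. Gpnmb also holds CAAAGTCC, so that the HNF4 letters are not confined to genes that fell. The AP-1 letters are not confined to genes that rose, since Hpd, among the largest falls, holds TGACTCA. Havcr1, Lcn2, Krt20, Timp1, Ltbp2, Adgra1, Nfasc and Clca3b, among the largest rises, hold neither motif. The same is true of Bhmt, Igf2 and Dnase1 among the largest falls.

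Genes that mark injured or repairing tubule rose together. Of 25 tested, 23 were higher, 21 of them at least 2-fold, and 1 was lower (median log2 fold change 2.06). Vcam1, an adhesion molecule of activated endothelium and of tubule cells that fail to repair, was at 21.1, 23.9, 19.3, 19.4 and 22.2 CPM in Con and at 186, 357 and 426 CPM in Ade (3.97 ± 0.20, edgeR adjusted p = 9.92e-09). Cd44, the hyaluronan receptor, rose from 4.66 to 6.17 CPM to 72.9 to 136 CPM (4.45 ± 0.20). Sox9, a factor switched on in dividing tubule cells after injury, rose from 2.12 to 6.02 CPM to 19.7 to 46.6 CPM (2.93 ± 0.30). All 3 separated the groups without overlap. Spp1, which encodes osteopontin, was already at 1366 to 1728 CPM in Con and was at 4847, 10923 and 16188 CPM in Ade (2.81 ± 0.31). The gene that went the other way was Itgb6, an integrin subunit, at 139.7 to 181 CPM in Con and 79.7 to 138 CPM in Ade (-0.75 ± 0.15, edgeR adjusted p = 0.00056).

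Cell cycle genes rose as a whole list, 22 of 22 tested and 20 of them at least 2-fold (median 2.74). Mki67, the proliferation antigen Ki-67, was at 8.35, 8.61, 7.68, 10.7 and 6.38 CPM in Con and at 47.8, 74.1 and 129.7 CPM in Ade (3.21 ± 0.25, edgeR adjusted p = 2.32e-07), and the highest value was that of mouse 308. Cdk1, the mitotic kinase, rose by 3.52 ± 0.30 and Pcna, the sliding clamp of DNA replication, by 0.48 ± 0.09, the largest and smallest changes of the list. The bulk counts do not say which cells divided. Among p53 targets and senescence genes 10 of 14 were higher and 3 lower (median 0.65), with Cdkn1a, the cell cycle inhibitor p21, up from 10.4 to 16.7 CPM to 36.5 to 71.0 CPM (1.97 ± 0.17). Gdf15, a stress-induced cytokine, rose by 2.36 ± 0.45, and Mdm2 had 0.05 ± 0.07 and did not pass (edgeR adjusted p = 0.535), except with library totals alone (0.35, edgeR adjusted p = 0.00075).

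Leukocyte genes rose in every class that could be tested. Of 25 macrophage and monocyte genes all 25 were higher, 24 at least 2-fold (median log2 fold change 3.51). Lyz2, the lysozyme of myeloid cells, was at 48.1, 36.3, 31.1, 35.6 and 25.4 CPM in Con and at 584, 933 and 1069 CPM in Ade (4.64 ± 0.21, edgeR adjusted p = 4.84e-09). C1qa, a chain of complement C1q made by tissue macrophages, rose by 3.51 ± 0.17 and Adgre1, the macrophage antigen F4/80, by 2.92 ± 0.20. Trem2, a lipid receptor of macrophages, was at 0.423 to 1.46 CPM in Con and at 17 to 35.0 CPM in Ade (4.89 ± 0.30, chosen after its values were seen). Csf1r, the receptor for macrophage colony-stimulating factor, had the smallest change, from 87.9 to 124 CPM to 167 to 245 CPM (0.90 ± 0.13), and was also chosen after its values were seen. The largest rise of the class was that of Gpnmb.

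Granulocyte genes were low throughout. Of 14 listed neutrophil genes 9 were in the table, 6 could be tested and all 6 were higher (median 3.61). S100a8, a subunit of calprotectin, was at 0 to 0.530 CPM in Con and 1.25 to 5.30 CPM in Ade (3.74 ± 0.63), and its partner S100a9 rose by 4.03 ± 0.43. Both passed the count filter only through the Ade libraries, so that the 6 of 6 is partly set by the filter. No mast cell gene could be tested, and the 5 in the table summed to at most 0.565 CPM in Con and 4.42 CPM in Ade. Dendritic cell genes were higher in 10 of 10 (median 2.28), with Flt3, a cytokine receptor of the lineage, up by 2.59 ± 0.28.

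T and natural killer cell genes were higher in 20 of 20 tested, all at least 2-fold (median 3.49), and 7 more listed genes were too low to test. Members nearly absent in Con, such as Foxp3, passed the count filter only through the Ade libraries, so that this count is partly set by the filter. Cd3e, a chain of the T cell receptor complex, was at 1.65, 0.988, 0.397, 1.76 and 1.15 CPM in Con and at 3.76, 11.4 and 25.4 CPM in Ade (3.35 ± 0.48, edgeR adjusted p = 5.39e-05). Cd4 rose by 3.62 ± 0.33 and Cd8a by 2.09 ± 0.41. Foxp3, the factor of regulatory T cells, rose from 0 to 1.27 CPM to 3.38 to 10.2 CPM (3.57 ± 0.52). The highest Ade value of all 4 genes was that of mouse 308, and the lowest was that of mouse 207.

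B and plasma cells showed the largest median of any list (4.11) and the widest spread between Ade mice of any leukocyte list. Of 17 genes tested 16 were higher, all 16 at least 2-fold. Jchain, which joins secreted IgA and IgM, was at 1.51 to 7.19 CPM in Con and at 19.4, 298 and 768 CPM in Ade (6.38 ± 0.88, edgeR adjusted p = 3.6e-05). Mouse 308 was highest and mouse 208 lowest, and no Ade mouse overlapped with Con. Without mouse 308 the median of the list was 3.24. The gene that did not pass was Cr2, the complement receptor CD21, named after its values were seen, at 4.37 to 5.92 CPM in Con and 1.02 to 8.70 CPM in Ade (-0.68 ± 0.39, edgeR adjusted p = 0.149), and lower without mouse 308 (-1.18, edgeR adjusted p = 0.00172) and in limma voom (-1.01, adjusted p = 0.0222). Immunoglobulin segments showed the same spread. All 58 of the 58 tested were higher. Segments nearly absent in Con, such as Ighv3-6 with 3 counts over the Con libraries, passed the count filter only through Ade, so that count is partly set by the filter. Together the 189 segments in the table, tested or not, took 0.00259% to 0.0158% of counts in Con and 0.0624%, 0.695% and 2.14% in Ade (exact permutation test, two-sided p = 0.00433, the smallest that 5 against 6 mice allow, and 0.00541 adjusted over 5 library measures). Immunoglobulin segments resemble each other, so that the counts and calls of single segments are uncertain.

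Signals that recruit and organise leukocytes rose with them. Of 9 listed lymphoid aggregate genes 4 could be tested, and all 4 were higher. They included Cxcl13, which attracts B cells, from 0.126 to 0.680 CPM to 3.39, 7.93 and 26.4 CPM (4.43 ± 0.58), and Ltb, which encodes lymphotoxin beta (4.35 ± 0.37). Cxcl13 passed the count filter only through the Ade libraries, so that the count of this list is partly set by the filter. Among chemokines and cytokines 26 of 27 were higher (median 3.40, and 2.34 with at least 10 counts in every library). Members nearly absent in Con, such as Cxcl5, passed the count filter only through Ade. Ccl8, a monocyte chemokine, rose from 0.128 to 0.680 CPM to 18.0 to 54.7 CPM (6.41 ± 0.44, chosen after its values were seen), Il1b by 2.90 ± 0.26 and Cxcl10, an interferon-induced chemokine, by 2.65 ± 0.29. Ccl28 was the member that did not pass.

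Complement genes were higher in 14 of 15 (median 2.48). C3, the central component, was at 35.8, 44.2, 39.5, 61.7 and 49.8 CPM in Con and at 1018, 1546 and 1775 CPM in Ade (5.0 ± 0.21, edgeR adjusted p = 2.16e-09). Cfb, a protease of the alternative pathway, went the other way, from 9.27 to 14.1 CPM to 2.01 to 6.63 CPM (-1.41 ± 0.22, edgeR adjusted p = 0.000119), and the groups did not overlap in Cfb or in the central component. Antigen presentation genes were higher in 16 of 16, all at least 2-fold (median 2.3), with Cd74, the invariant chain of MHC class II, up from 258 to 336 CPM to 1480 to 3042 CPM (2.88 ± 0.19) and the class I chain H2-K1 up by 1.90 ± 0.15. Interferon-stimulated genes were higher in 21 of 23 (median 1.65), among them Isg15 (2.03 ± 0.20) and Irf7 (2.05 ± 0.14).

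**Figure D3:**
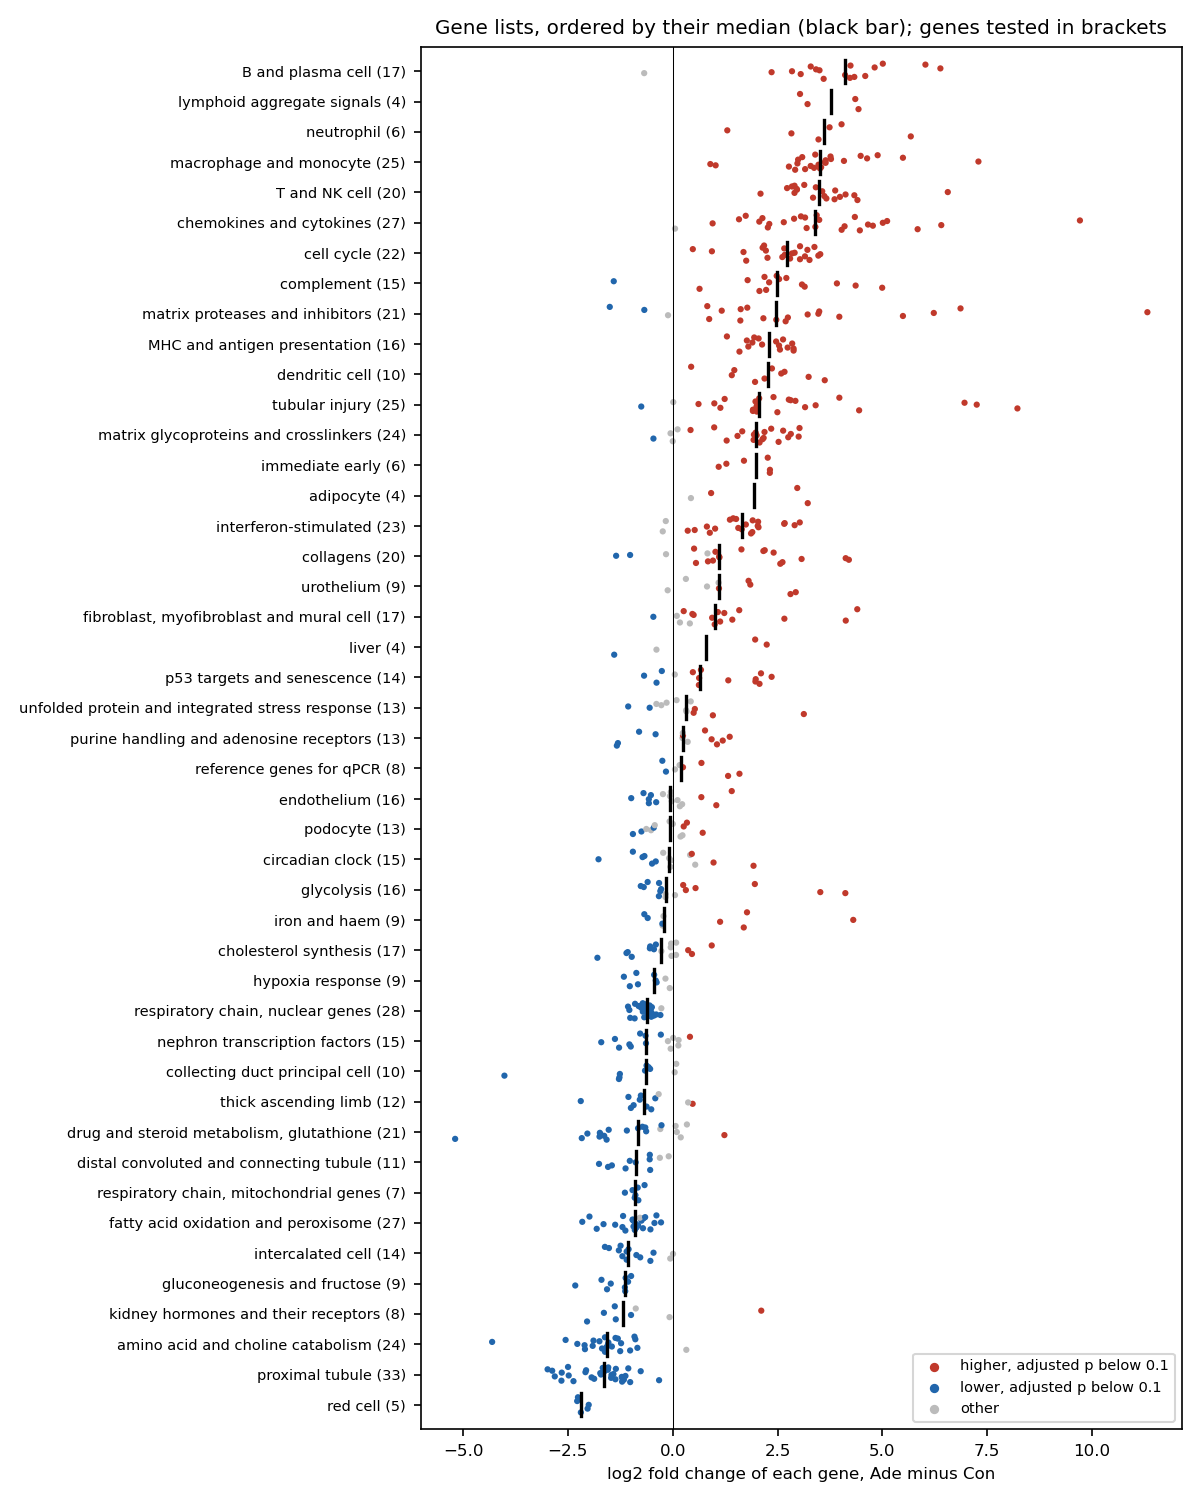
Log2 fold change (Ade minus Con) of each gene tested in 45 gene lists, ordered by the list's median (black bar), with red and blue for genes higher and lower at an adjusted p below 0.1 and grey for the rest. The B and plasma cell list has the highest median, 4.11, and the red cell and proximal tubule lists the lowest, -2.19 and -1.64.

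Matrix genes rose, and the means over collagen and over matrix glycoprotein genes varied little among the Ade mice (SD 0.132 and 0.104 on the log2 scale). Of 20 collagen genes 16 were higher and 2 lower (median log2 fold change 1.11). Fibrillar collagen led, with Col1a1 at 39.7, 49.7, 40.9, 44.8 and 45 CPM in Con and at 666, 801 and 1013 CPM in Ade (4.20 ± 0.13, edgeR adjusted p = 3.71e-10). Basement membrane collagen IV split by chain. Col4a1, of the network found in most basement membranes, rose from 396 to 473 CPM to 769 to 1160 CPM (1.11 ± 0.13, edgeR adjusted p = 7.95e-06). Col4a3, of the network of the glomerular and some tubular basement membranes, fell from 860.3, 802, 826, 861 and 788 CPM to 241, 317 and 461 CPM (-1.35 ± 0.16, edgeR adjusted p = 9.22e-06). Col4a4, the chain that assembles with it, fell by 1.02 ± 0.17 and was named after its values were seen. All Ade mice were above all Con mice for Col4a1 and below them for both other chains.

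Of 24 matrix glycoproteins and crosslinkers 20 were higher and 1 lower (median 1.99). Fn1, which encodes fibronectin, rose from 59.3 to 129.7 CPM to 394 to 646 CPM (2.76 ± 0.23). Tnc, the injury-induced glycoprotein tenascin C, rose by 3.02 ± 0.41, and Lox, the enzyme that crosslinks collagen, by 3.0 ± 0.25. Matrix proteases and their inhibitors were higher in 18 of 21 and lower in 2 (median 2.47). Mmp2, a gelatinase of stromal cells, rose from 4.66 to 7.53 CPM to 59.0 to 87.1 CPM (3.47 ± 0.14). Timp3, an inhibitor that is bound to matrix, fell from 1191 to 1777 CPM to 266, 544 and 785 CPM (-1.50 ± 0.24, edgeR adjusted p = 0.000106), opposite to Timp1 in the same kidneys.

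Marker genes of stromal cells also rose. Of 17 fibroblast, myofibroblast and mural cell genes 13 were higher and 1 lower (median 1.0). Acta2, the smooth muscle actin of myofibroblasts and vessels, was at 81.1, 90.3, 70.9, 76.8 and 88.8 CPM in Con and at 139, 163 and 185 CPM in Ade (1.0 ± 0.09, edgeR adjusted p = 1.41e-06), and Pdgfrb, a receptor of pericytes and fibroblasts, rose by 1.08 ± 0.10. Myh11, the myosin of mature smooth muscle, had 0.10 ± 0.10 and did not pass (edgeR adjusted p = 0.389), except with library totals alone (0.395, edgeR adjusted p = 0.00499). Thy1, a surface protein of fibroblasts and also of T cells, had the largest rise, from 2.81 to 4.03 CPM to 48.9 to 86.7 CPM (4.40 ± 0.17). Thy1 and the T cell genes were both higher in Ade, and the share of each cell type in Thy1 was not tested.

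The glomerular and endothelial lists had medians near 0. Of 13 podocyte genes 3 were higher, 3 lower and 7 not called (median -0.07), and of 16 endothelial genes 3 were higher and 6 lower (median -0.05), beside 35.1% higher and 32.2% lower over all genes tested. Both medians turned positive when library totals alone set the scale (0.21 and 0.23). Nphs1, which encodes nephrin of the slit diaphragm, had a log2 fold change of -0.52 ± 0.31 (edgeR adjusted p = 0.16), and was lower when mice were blocked by the digit that opens their number (-0.86, edgeR adjusted p = 0.00507), in limma voom (-0.69, adjusted p = 0.0898) and without mouse 407 (-0.65, edgeR adjusted p = 0.086). Within the mice whose number starts with 2, 3 or 4 the podocyte median was -0.91, -0.45 and 0.22. The second value has mouse 308 as its only Ade mouse and the third has mouse 403 as its only Con mouse, so no direction per digit is read from them. What that digit stands for is not stated. Clic5, a chloride channel protein of podocytes, fell (-0.95 ± 0.21). Among endothelial genes Kdr, the VEGF receptor that glomerular and peritubular endothelium carry, fell from 95.3 to 144 CPM to 40.2 to 87.9 CPM (-0.99 ± 0.20), Vwf, which encodes von Willebrand factor, rose by 1.41 ± 0.33, and Pecam1, the general endothelial marker CD31, had -0.07 ± 0.17 (edgeR adjusted p = 0.756), a sign that turned with library totals alone (0.22) and without mouse 207 (0.04) or 202 (0.04).

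Metabolic genes of the tubule fell in bulk. Of 27 genes of fatty acid oxidation and the peroxisome 26 were lower and none higher (median log2 fold change -0.89). Ppara, the nuclear receptor that drives this programme, was at 100.4, 75.0, 60.3, 109.9 and 69.8 CPM in Con and at 12.6, 20.2 and 34.9 CPM in Ade (-1.98 ± 0.23, edgeR adjusted p = 9.13e-06). Its coactivator Ppargc1a fell by 1.18 ± 0.14, the dehydrogenase Acadm by 1.81 ± 0.33 and Cpt1a, which loads fatty acids onto carnitine, by 0.93 ± 0.16. Ehhadh, of peroxisomal oxidation, had the largest fall, from 468 to 1162 CPM to 68.4, 143 and 459 CPM (-2.16 ± 0.43). Mouse 407 again held the highest Ade value in Acadm and Ehhadh.

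The respiratory chain fell more evenly. Nuclear genes were lower in 27 of 28 (median -0.62), and all 7 mitochondrial genes in the table were lower (median -0.89). Sdha, of complex II, fell by 1.07 ± 0.15, Atp5a1, of the ATP synthase, by 0.91 ± 0.15, and mt-Cytb, of complex III, by 0.91 ± 0.17. Mitochondrial transcripts took 10.8% to 12.1% of Con counts and 6.22% to 8.67% of Ade counts (exact permutation test, two-sided p = 0.00433, adjusted 0.00541), a share that RNA quality can also move; no RNA quality value was given, and its part was not tested.

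Amino acid and choline catabolism was lower in 23 of 24 genes, 20 of them at least 2-fold (median -1.56). Besides Hpd, Gatm, which makes the creatine precursor, fell by 2.27 ± 0.42. Chdh, which oxidises choline to betaine aldehyde, fell by 0.84 ± 0.15. Gluconeogenesis and fructose genes were lower in 9 of 9 (median -1.14). Pck1, the rate-limiting step, fell by 1.06 ± 0.27, Fbp1 by 1.57 ± 0.34 and the glycerol kinase Gk by 2.32 ± 0.29, while G6pc had the weakest evidence (-1.14 ± 0.49, edgeR adjusted p = 0.0582), and its call was lost with library totals alone (-0.88, edgeR adjusted p = 0.111) and without mouse 308 or 403 (edgeR adjusted p = 0.107 and 0.129).

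Of 16 glycolysis genes 6 were higher and 7 lower, beside 35.1% and 32.2% of all genes tested. Its median was -0.17, although the mean over its members was higher in Ade by 0.42, and Hk2 rose furthest. Hk2, the inducible hexokinase, rose from 0.795 to 3.95 CPM to 11.5 to 47.2 CPM (4.12 ± 0.44), whereas Ldha, lactate dehydrogenase, fell by 0.30 ± 0.09, a sign that turned with library totals alone (0.003). Some glycolytic genes, such as Gapdh, have many processed copies in the genome, and their counts depend on how reads with several matches were treated. Drug, steroid and glutathione genes were lower in 15 of 21 and higher in 1 (median -0.83), with Fmo1, a flavin monooxygenase, down by 1.72 ± 0.19. Cholesterol synthesis had 8 of 17 lower and 3 higher (median -0.27, and 0.03 with library totals alone), beside the same shares over all genes, with Hmgcs1 down by 1.07 ± 0.15 and Cyp51, the lanosterol demethylase, down by 1.80 ± 0.29.

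Of 13 genes that handle adenine and its products 6 were higher and 4 lower (median 0.25), beside 35.1% and 32.2% of all genes tested. Xdh, the enzyme that oxidises adenine as well as hypoxanthine, was at 53.2, 58.0, 60.4, 63.8 and 65.2 CPM in Con and at 77.8, 101 and 125 CPM in Ade (0.77 ± 0.11, edgeR adjusted p = 5.53e-05). Aprt, which salvages adenine to AMP, had 0.23 ± 0.13 and did not pass (edgeR adjusted p = 0.135), but passed with library totals alone (0.53, edgeR adjusted p = 0.00566), with upper-quartile scaling (edgeR adjusted p = 0.0842), with at least 10 counts in every library (edgeR adjusted p = 0.0882) and without mouse 407 or 403 (edgeR adjusted p = 0.0777 and 0.0312). Adk, adenosine kinase, fell from 132 to 159.6 CPM to 45.6 to 76.2 CPM (-1.31 ± 0.12), Abcg2, an apical exporter of urate, fell by 1.33 ± 0.16, and Entpd1, the ectonucleotidase CD39 of leukocytes and vessels, rose by 1.36 ± 0.12.

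Endocrine genes of the kidney were lower in 5 of 8 and higher in 1 (median -1.18), beside 32.2% and 35.1% of all genes tested. Cyp27b1, which activates vitamin D, was at 2.23, 1.41, 1.72, 3.40 and 4.21 CPM in Con and at 8.62, 10.6 and 16.1 CPM in Ade (2.11 ± 0.27, edgeR adjusted p = 2.07e-05). Cyp24a1, which inactivates vitamin D, fell from 272, 202, 401, 235 and 469.9 CPM to 49.0, 107 and 134 CPM (-1.64 ± 0.27, edgeR adjusted p = 0.000137), and Vdr, the vitamin D receptor, fell by 1.38 ± 0.16. The activating and the inactivating enzyme thus moved in opposite directions without overlap between the groups. Ace, which makes angiotensin II, fell by 2.04 ± 0.23. Ren1, renin, was at 13.1 to 195 CPM in Con and 34.3 to 96.5 CPM in Ade and did not pass (-0.88 ± 0.45, edgeR adjusted p = 0.106). It was lower in Ade without Con mouse 403 (-1.17, edgeR adjusted p = 0.00215), which had the 13.1 CPM while the other Con mice were at 114 to 195 CPM, and without Ade mouse 407 (-1.07, edgeR adjusted p = 0.0631). With all mice kept it passed with RLE scaling (-0.90, edgeR adjusted p = 0.0992). Epo was too low to test.

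The unfolded protein and integrated stress response list had 4 of 13 higher and 2 lower (median 0.32), beside 35.1% and 32.2% of all genes tested, and nothing particular to these genes can be read from that count. The same holds for the iron and haem and the clock lists. Atf3, an early stress factor, rose from 1.36 to 2.52 CPM to 9.54 to 26.3 CPM (3.13 ± 0.28), Atf4 by 0.50 ± 0.11 and Ddit3, which encodes CHOP, by 0.53 ± 0.17, while the chaperone Hspa5 had -0.39 ± 0.21 (edgeR adjusted p = 0.117, and 0.0714 with that block on the opening digit, DESeq2 adjusted p = 0.0763, and edgeR adjusted p = 0.0757 and 0.0207 without mouse 407 or 202) and Herpud1, of endoplasmic reticulum degradation, fell by 1.06 ± 0.16. Hypoxia response genes were lower in 7 of 9 and higher in none (median -0.44), with Vegfa, the main growth factor of peritubular capillaries, down by 0.87 ± 0.13. Of 9 iron and haem genes 4 were higher and 3 lower. Their median was -0.22 and turned with library totals alone (0.08), and the mean over members was higher in Ade by 0.72. Hp, the haemoglobin-binding haptoglobin, rose by 4.31 ± 0.42 and Hmox1, haem oxygenase, by 1.13 ± 0.16. Clock genes had 3 of 15 higher and 6 lower (median -0.09, and 0.21 with library totals alone), among them Hlf (-1.77 ± 0.23) and Bhlhe41 (1.93 ± 0.29). The hour at which kidneys were taken is not given in the labels.

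Transcripts of blood, fat and urinary tract lining differed between the groups as well, and their part in the results above was not tested. All 5 red cell genes tested were lower (median -2.19). The summed red cell genes were at 179 to 243 CPM in Con and 15.5 to 102 CPM in Ade, and Hbb-bs, an adult beta globin, fell by 2.28 ± 0.34. Of 4 adipocyte genes 3 were higher, but their sum was at 43.4 to 105 CPM in Con and 55.9 to 413 CPM in Ade, with overlap, and Ucp1, of brown fat, was at 75.6 CPM in mouse 207 and below 10 CPM in every other mouse. Of 9 urothelial genes 5 were higher, and the summed list was at 4.28 to 72.6 CPM in Con and 24.1 to 160 CPM in Ade. Adrenal and skeletal muscle lists had 1 testable gene each and the liver list 4, of which Ttr, transthyretin, rose by 1.97 ± 0.21 and Alb, albumin, fell by 1.39 ± 0.35. Immediate early genes, which respond within minutes to handling of tissue, were higher in 6 of 6 (median 1.98), with Egr1 up by 2.32 ± 0.24. Of 8 genes in use as qPCR references 4 were higher and 2 lower, beside 35.1% and 32.2% of all genes tested. Actb was up by 1.32 ± 0.12 and Rpl13a by 0.69 ± 0.13. Gapdh was at 0.05 ± 0.16 (edgeR adjusted p = 0.788, and 0.35 with an edgeR adjusted p = 0.0867 with library totals alone). It was read at only 6.70 to 8.42 CPM in Con and 5.09 to 9.37 CPM in Ade, and its counts depend on how reads with several matches were treated.

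The 6 Ade mice did not change to the same extent. For each list the mean log2 CPM of its tested genes was taken in each mouse, minus the Con mean. The proximal tubule score was at -2.55 in mouse 207, -2.50 in 208, -2.03 in 308, -0.94 in 407, -1.47 in 408 and -1.63 in 409, whereas the Con mice lay between -0.15 and 0.13. Tubular injury scores were at 3.24, 3.10, 2.60, 1.83, 2.39 and 2.35 in the same order. Mouse 407 thus had the smallest loss and the smallest injury score, and among the Ade mice it was the least lowered in 15 of 21 lowered lists and had the lowest score in 11 of 26 raised lists. The collagen score moved little, at 1.26 to 1.65 in Ade, and the macrophage score lay between 2.97 and 3.76. The B and plasma cell score ran from 1.66 in mouse 208 to 4.76 in mouse 308. The order of the mice thus differed between lists. Over all genes the median SD of log2 CPM was 0.190 in Con and 0.223 in Ade, and 61.5% of genes varied more in Ade.

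**Figure D4:**
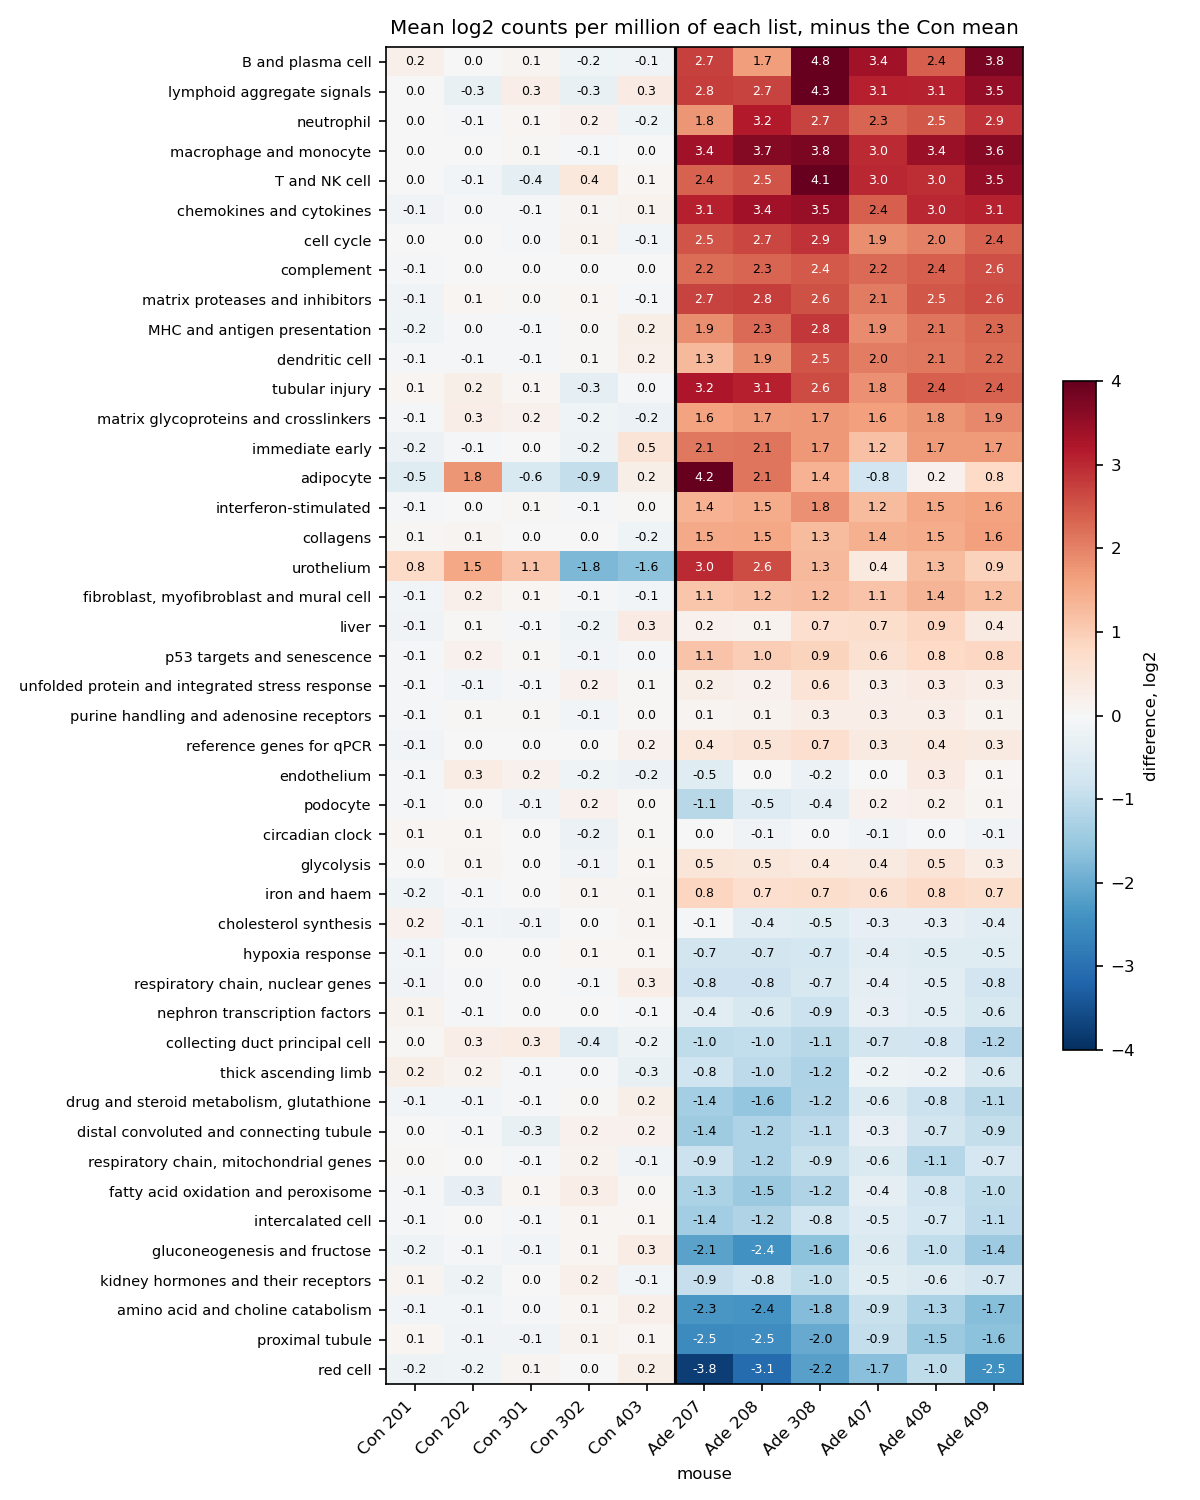
Mean log2 CPM of the tested genes of each list in each of the 5 Con and 6 Ade mice (columns), minus the Con mean, with the value printed in each cell and coloured from -4 (blue) to 4 (red). Among the lists drawn, the Con scores spread most in the adipocyte and urothelium lists, and in the proximal tubule row the Ade mice range from -2.55 in mouse 207 to -0.94 in mouse 407.

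The mouse numbers start with 2, 3 or 4 in both groups. Among numbers that start with 3 the only Ade mouse is 308, and among those that start with 4 the only Con mouse is 403. Of the 9841 genes called, 9142 (92.9%) had the same sign within all 3 digits. The calls came from these same mice, so that this agreement was largely fixed in advance and is no replication. The proximal tubule median was -2.08, -1.88 and -1.44 within digits 2, 3 and 4, and the median of macrophage genes 3.54, 3.75 and 3.11. The sign of the median turned within a digit in 5 of 45 lists, those of podocyte, thick ascending limb, endothelium, purine handling and qPCR reference genes. In each it turned within digit 4 only, where every difference is taken from Con mouse 403. Within digits 2, 3 and 4 the endothelial median was -0.42, -0.27 and 0.23, that of purine handling 0.49, 0.40 and -0.01 and that of qPCR reference genes 0.32, 0.36 and -0.01.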

How the data were processed

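RNA-seq had been run on 11 kidneys, 5 Con and 6 Ade, each from a different mouse. The authors deposited raw read counts per Ensembl gene, made from single-end reads of TruSeq libraries. The methods of the study name STAR and build mm10, whereas the submitters' processing notes name Trimmomatic 0.39, FastQC 0.11.8, Bowtie2 2.2.5 and HTSeq 0.9.1 without a role. Neither the gene annotation's release nor strand handling is given in the sources used here. Tables of size-factor normalised values and of the authors' own fold changes and p-values, for a comparison that includes IMC, were not used.

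The table held 21004 rows, of which 302 had no gene symbol (0.212% of counts). Genes were kept by filterByExpr of edgeR 4.0.16 (R 4.3.3), which left 14612. Genes nearly absent in Con passed this filter through the Ade libraries, so counts of raised list members are partly set by it. Counts were scaled by TMM and tested by edgeR's quasi-likelihood F-test for Ade against Con, with Benjamini-Hochberg adjustment over all tested genes and a threshold of 0.1. Errors of log2 fold changes are standard errors. Library totals of 5444833 to 11680809 counts set the precision of low genes. Intervals and floors of 3 counts cover counting error only. No 2 libraries agreed within sampling noise. The fit was also run on simulated counts in which few genes changed, equally up and down. These data differ from that setting, so that run does not check the fit at shifts of this extent. Alternatives were DESeq2 1.42.0, limma 3.58.1 (voom), other scalings and filters, a test against a 1.5-fold change, a block for the digit that opens each mouse's number, a stricter threshold, removal of immunoglobulin segments and omission of each mouse.

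Members and gene lists were chosen with earlier results of these data known. Genes were named if they were among the first 4 tested symbols of a list, had the largest called change each way in a list, were among the 12 largest rises and falls with no overlap between groups and at least 5 CPM in the higher group, had 0 counts in Con, or were among the 6 smallest adjusted p-values each way, with Apoe added. Cubn, Slc13a1, Cd44, Spp1, Csf1r, Lyz2, Trem2, Cr2, Ccl8, Ccl28, H2-K1, Col4a4, Ppargc1a, Atp5a1, Adk, Pcna, Actb and Epo fell outside this rule and were chosen after their values were seen. Some genes that the rule names, and 1 promoter motif, are not reported here.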

Additional observations from a re-analysis of the deposited data

Results flagged for a closer look

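Within-group outliers by Dixon's test were sought in 406 groups of values and found in 30, where chance alone gives about 1 in 20, or about 20. In Ade, mouse 407 was high for Acadm (695.8 CPM), Aqp4 (29.03 CPM), Cubn (457.6 CPM), Ehhadh (458.8 CPM), Lrp2 (1765 CPM) and Slc7a12 (123.8 CPM) and low for Ddit3 (12.99 CPM). Mouse 308 was high for Cr2 (8.702 CPM), Cxcl10 (71.96 CPM) and Ltb (44.52 CPM), and its library total was low, at 5445000 counts to 4 digits. Mouse 207 was high for Myh11 (136.6 CPM) and Ucp1 (75.64 CPM), and mouse 208 for S100a8 (5.304 CPM).

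In Con, mouse 201 was high for Ace (502.9 CPM), Fn1 (129.7 CPM) and Trem2 (1.457 CPM) and low in the complement score (-0.0547). Mouse 202 was high for Hk2 (3.952 CPM), Hp (1.412 CPM), Il1f6 (0.2823 CPM) and Ucp1 (9.175 CPM). Mouse 302 was high for Gatm (1221 CPM) and Slc5a2 (310.4 CPM) and low in the clock score (-0.243). Mouse 403 was high for Atp5a1 (2653 CPM), Ctla4 (0.1276 CPM), Scnn1b (103.5 CPM) and Vegfa (476.9 CPM) and low for Entpd1 (16.20 CPM). For Ctla4 and Il1f6 the value was the only one above 0 in its group and rested on 1 and 2 counts.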

How the results depend on the processing

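With library totals alone, 7990 genes were higher and 2497 lower, 541 of these at least 2-fold lower. Under the same scaling the medians of lowered lists were -0.347 for principal cells, -0.788 for intercalated cells, -0.342 for nephron transcription factors, -0.882 for hormones, -0.328 and -0.598 for nuclear and mitochondrial respiratory chain genes, -0.541 for drug and steroid metabolism and -0.151 for hypoxia. Those of raised lists were 3.82 for macrophages, 3.71 for chemokines, 2.77 for complement, 2.60 for antigen presentation, 1.94 for interferon-stimulated genes, 1.41 for collagens, 2.29 for matrix glycoproteins, 2.78 for proteases, 1.30 for fibroblasts, 0.544 for purine handling, 3.04 for cell cycle, 0.946 for p53 targets, 0.62 for stress response, 1.08 for liver and 0.502 for qPCR references. Medians that turned positive were 0.235 for endothelium, 0.215 for podocytes, 0.124 for glycolysis, 0.0265 for cholesterol synthesis, 0.0815 for iron and haem and 0.214 for the clock, as did Pecam1 (0.223) and Ldha (0.00301).

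A test against a 1.5-fold change left 2612 genes higher and 1430 lower. It ended the calls of Apoe, Atf4, Cldn16, Ddit3, Foxi1, G6pc, Itgb6, Ldha, Pax8, Pcna, Rpl13a, Scnn1b, Slc13a1 and Ucp1. At least 2-fold rises numbered 1365 when every library had to hold 10 counts and 3514 with no filter, and the stricter filter gave medians of 2.34 for chemokines, 2.01 for proteases and 2.28 for cell cycle. The median of gluconeogenesis genes was -1.76 with the first digit as a block. Allowing 1 Con count gave 9 genes in place of 4 that were read in Ade only. No paired analysis was possible by replicate number because these numbers were given in accession order. The block on the first digit gave 5094 genes higher and 4646 lower, and with it Hspa5, Nphs1 and Umod gained a call.

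Leaving out each mouse in turn gave medians of 3.24 to 4.35 for B and plasma cells, 2.34 to 2.70 for proteases, -0.425 to -0.205 for cholesterol synthesis, 0.193 to 0.334 for purine handling, 0.159 to 0.39 for stress response and -0.233 to -0.0877 for the clock, and 4 to 8 genes read in Ade only, 7 without mouse 201 or 208 and 8 without 407. Pecam1 ran from -0.152 to 0.0413 (0.0413 without mouse 207 and 0.0376 without 202) and Gapdh from -0.012 (without 208) to 0.153. The cause of these shifts was not tested. Over all alternatives together, 3196 values of single genes kept direction and side of the threshold, 29 lost and 25 gained the call, and 5 turned. The calls of G6pc, Slc13a1 and Ucp1 were lost without single mice, and Aprt, Cr2, Hspa5, Nphs1, Ren1 and Trpm6 gained one. Genes with few Con counts are limited by depth.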
